A study of Rattus norvegicus with 5 samples.

Results

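Keratins of simple and ductular epithelium were followed across 1 rat liver and 4 rat hepatocellular carcinoma lines. The genes are Krt7, Krt8, Krt18, Krt19, Krt20 and Krt23, with Krt14 and Krt5 of the basal layer of stratified epithelium beside them. Members were the probes whose platform annotation gives 1 of these 8 symbols, older names included. This found 7 probes of 33849 discovery probes, for 6 of the 8 genes. Krt7 and Krt18 were not analysed here, since no probe was named for them. Krt5 had 2 probes and each of the other 5 genes had 1.

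RNA was hybridised to single-colour CodeLink arrays, 1 array per sample. The pair C5F and C6 is low-metastatic and the pair N1 and L2 high-metastatic, all 4 from liver tumours of male F344 rats given N-nitrosomorpholine and diethylnitrosamine, with an age of 31 weeks in the labels. The liver came from an untreated male SD rat of 50 weeks. Liver and lines thus also differed in strain, age and culture, which cannot be told apart from tumour. A class thus had 2 lines as replicates, and the liver had no replicate. The p-values measure the spread between lines of a class.

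Keratins form the intermediate filaments of epithelial cells. A filament needs a type II keratin, such as Krt8, Krt7 or Krt5, paired with a type I keratin, such as Krt18, Krt19, Krt20, Krt23 or Krt14. Hepatocytes of normal liver make almost only Krt8 and Krt18, while bile duct cells add Krt7 and Krt19, and pathologists use Krt19 as a marker of ductular or progenitor features in liver tumours. Krt20 is known from intestinal and urothelial lining, Krt23 from stressed or diseased liver, and Krt5 with Krt14 from the basal cells of skin and glands. In the GRCr8 gene table the type II genes Krt7, Krt8 and Krt5 lay on chromosome 7, and the type I genes Krt19, Krt20, Krt23 and Krt14 on chromosome 10. Krt18, a type I gene, lay on chromosome 7 beside Krt8, between Krt8 and Eif4b.

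RefSeq promoter sequences were at hand for 5 of the 8 genes, Krt8, Krt18, Krt20, Krt23 and Krt5. Krt7, Krt14 and Krt19 had no entry. Shown are the 250 bases before the annotated start of Krt8, whose probe was above background in all 4 lines, and of Krt20 and Krt5, whose probes were near background in liver. Capitals mark matches on either strand to a TATA box (TATAAA), a GC box (GGGCGG, or CCGCCC when read from the other strand) or a CCAAT box (CCAAT). Sequences are written 5′ to 3′ in the direction of transcription.
Krt8 (GRCr8, chr7:135010340-135010589, minus strand): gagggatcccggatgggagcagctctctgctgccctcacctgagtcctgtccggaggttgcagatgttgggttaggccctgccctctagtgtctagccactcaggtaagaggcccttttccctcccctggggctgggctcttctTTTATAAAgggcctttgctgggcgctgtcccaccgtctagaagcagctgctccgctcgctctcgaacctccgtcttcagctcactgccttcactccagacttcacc
Krt20 (GRCr8, chr10:84890286-84890535, minus strand): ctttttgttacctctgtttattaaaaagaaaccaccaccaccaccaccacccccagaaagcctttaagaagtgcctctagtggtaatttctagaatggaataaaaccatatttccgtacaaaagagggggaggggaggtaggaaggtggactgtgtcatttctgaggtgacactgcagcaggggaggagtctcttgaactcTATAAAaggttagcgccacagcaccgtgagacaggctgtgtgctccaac
Krt5 (GRCr8, chr7:134730570-134730819, minus strand): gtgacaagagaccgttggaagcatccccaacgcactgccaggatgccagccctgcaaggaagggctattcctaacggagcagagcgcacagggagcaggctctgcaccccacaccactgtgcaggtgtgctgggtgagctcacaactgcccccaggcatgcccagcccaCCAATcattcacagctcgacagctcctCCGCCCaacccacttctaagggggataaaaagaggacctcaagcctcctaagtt
The Krt8 stretch held TATAAA on both strands in overlapping positions, from 104 to 99 and from 106 to 101 bases before the start. In Krt20 it lay from 49 to 44 bases before the start. The Krt5 stretch held a CCAAT box from 81 to 77 and a GC box on the other strand from 54 to 49 bases before the start. Of 27457 rat promoters of the same length, 13.1% held TATAAA, 32.4% GGGCGG and 34.3% CCAAT. The AP-1 motif TGANTCA was in 6.36% of them and in none of the 5 keratin promoters. A match is a description of letters only.

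Of the discovery probes, 30.6% were above background in liver and 32.7% to 39.2% in the lines. Irregular spots, whose shape failed the scanner software's test, made up 6.72% to 8.7% of each array. Several of the spots in question carried a keratin. The liver spots of Krt8 and Krt19 and the C5F spot of Krt14 were irregular, and the N1 spot of Krt19 was called contaminated. Values by array are therefore given with every spot kept, and each test is given with and without those spots. Signal is the log2 of the background-subtracted intensity after quantile normalisation, and the lowest signal called above background was 3.87 in liver, with C5F at 2.98, C6 at 3.56, N1 at 3.70 and L2 at 3.48 on this scale. Levels of different probes are not compared.

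The lines are labelled hepatocellular carcinoma, and most hepatocyte markers were near background in C6, N1 and L2. Of 18 such genes with a probe, liver had 15 above background, C5F had 10, C6 had 2, N1 had 3 and L2 had 2. Albumin (Alb), picked after its values were seen, was near background in every line and at least 263-fold lower than in liver (limma, adjusted p = 0.00627). In tests of all 4 lines against liver, 9 of 13 testable hepatocyte genes fell and none rose, beside 9.38% of all probes tested that fell and 9.01% that rose. Markers of Kupffer cells fell for 6 of 8 testable genes, of endothelium for 5 of 6 and of stellate cells and fibroblasts for 3 of 4, and none of these genes rose. Each of these calls was lost when any 1 line was left out, as no probe of the array then passed against liver, with irregular spots left out or kept. Genes near background in every line, such as Alb, passed the filter through liver alone. Their fall is not independent of that filter. In whole liver, fewer cells of a type and less RNA per cell cannot be told apart.

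Krt8, the type II keratin of hepatocytes and ducts, was brighter in every line than in liver. Its log2 signal was 7.22 in liver, with C5F at 9.44, C6 at 9.37, N1 at 10.11 and L2 at 9.02. The raw intensity ran from 118 in liver to 431 in L2, 732 in C6, 826 in C5F and 1110 in N1. Liver lay below all 4 lines without overlap. Against liver this is 4.64-fold in C5F, 4.44-fold in C6, 7.41-fold in N1 and 3.46-fold in L2. Of 16291 probes with all spots kept, 42.4% had all 4 lines above liver. The mean of the lines exceeded liver by 2.26 ± 0.53 (SE, log2, 4.8-fold) with irregular spots kept, and this did not pass (limma, adjusted p = 0.0665). The value with contaminated spots kept too was 2.26 ± 0.5 (adjusted p = 0.0617, limma). Without the irregular liver spot Krt8 could not be tested against liver.

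Krt19, the type I keratin that in normal liver marks bile ducts, showed the widest step from liver to lines among the members. The log2 signal was 5.69 in liver, with C5F at 11.23, C6 at 10.46, N1 at 12.20 and L2 at 9.14. Raw intensity was 39.5 in liver and 2770, 1420, 4960 and 465 in C5F, C6, N1 and L2. All 4 lines lay above liver, by 46.7-fold in C5F, 27.3-fold in C6, 91.4-fold in N1 and 10.9-fold in L2. With irregular spots kept and the contaminated N1 spot left out, Krt19 rose by 4.26 ± 0.43 (SE, log2, 19.2-fold) in the lines (limma, adjusted p = 0.0342). In that fit 19.2% of the 16334 probes tested were called, 10.9% as higher and 8.27% as lower in the lines. With the N1 spot kept, the difference was 5.07 ± 1.34 (33.6-fold) and no longer passed (limma, adjusted p = 0.0827), in a fit where 19.3% of all probes tested were called. Without the N1 array as a whole the difference was again 4.26, since the N1 spot of Krt19 was already left out. The call was lost there, as was every call on the array, so this loss is not particular to Krt19. Without any 1 of C5F, C6 or L2 Krt19 could not be fitted against liver. Without C5F or C6 no residual degree of freedom was left, and without L2 the high-metastatic class had no usable spot.

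**Figure D1:**
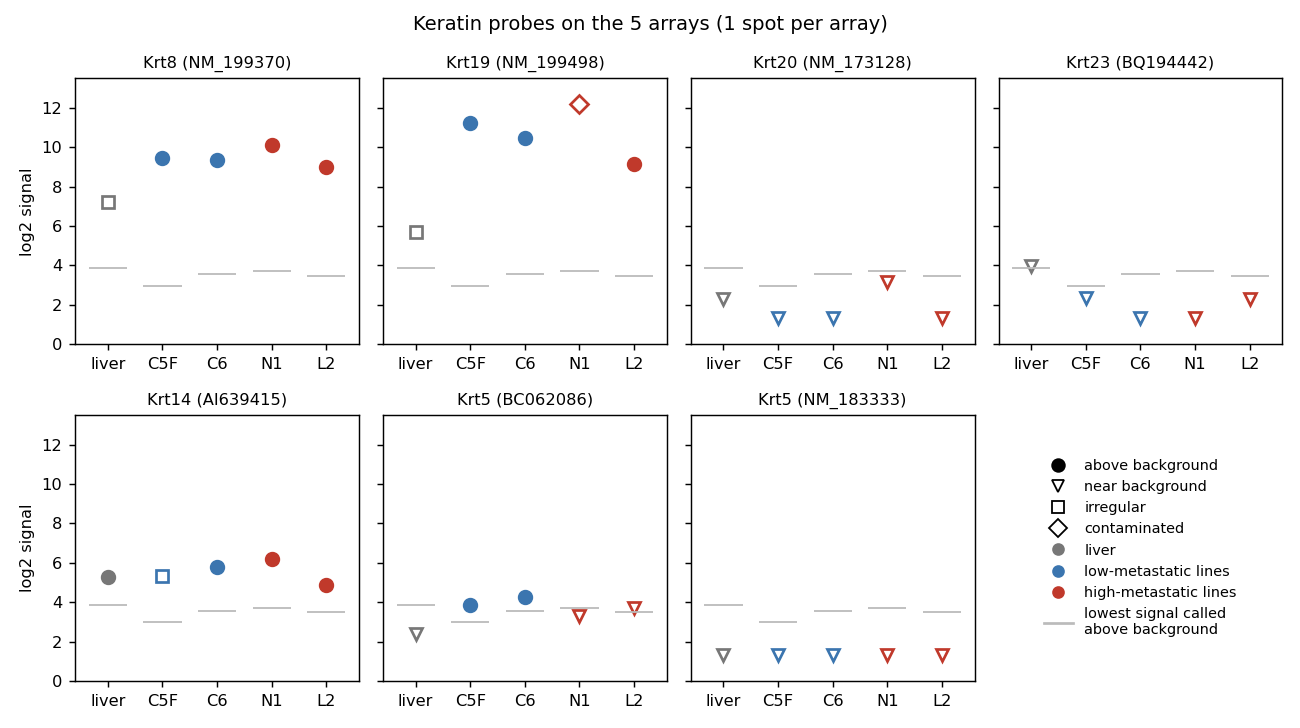
Log2 signal (vertical axis) of the 7 keratin probes on the 5 arrays (horizontal axis), 1 point per array with every spot kept; filled points are above background, open shapes are near background, irregular or contaminated, and grey lines give the lowest signal called above background on that array. Krt8 and Krt19 lie higher in all 4 lines than in liver, Krt14 overlaps liver, and Krt20, Krt23 and the second Krt5 probe are near background throughout.

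Krt14, the type I partner of Krt5 in basal cells, did not separate liver from the lines. The log2 signal was 5.26 in liver, with C5F at 5.31, C6 at 5.78, N1 at 6.19 and L2 at 4.87. Liver lay within the range of the lines, above L2 and below the other 3. With the irregular C5F spot set aside, the lines differed from liver by 0.30 ± 0.82 (SE, log2; limma, adjusted p = 0.816). With it kept and N1 left out the difference turned to -0.05.

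Krt5, the basal type II keratin, was read by 2 probes that disagreed. The probe for BC062086 gave a log2 signal of 2.36 in liver, with C5F at 3.88, C6 at 4.27, N1 at 3.29 and L2 at 3.70. Only C5F and C6 were called above background, while liver, N1 and L2 were near it. All 4 lines lay above liver, as did 37.3% of probes usable on all 5 arrays. The difference of the lines from liver was 1.44 ± 0.28 (SE, log2), just outside the threshold (limma, adjusted p = 0.0511). It passed at 0.0459 (limma, adjusted p) when probes had to be above background in liver or in both lines of 1 class. Under either filter the probe entered the tests only through C5F and C6, its brightest lines. Both p-values are thus not independent of that selection. As liver was near background and the mean of the lines did not exceed the detection limit of liver, no fold is given. The other Krt5 probe, for NM_183333, was near background on all 5 arrays.

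Krt20 and Krt23 were near background on every array. Krt20 had log2 signals of 2.30 in liver, 1.34 in C5F, C6 and L2, where 1.34 is the floor set for all values, and 3.15 in N1. Krt23 had 3.96 in liver, 2.33 in C5F, 1.34 in C6 and N1, and 2.32 in L2. Neither gene passed the filter, and neither can be ranked between samples. Krt20 and Krt23 were thus not called above background in any sample. The liver value of Krt23 was borderline, as the lowest signal called above background in liver was 3.87.

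Over the 6 genes with a probe, 4 passed the filter on dim probes, which kept probes detected in liver or in 2 or more lines. Only Krt14 and Krt5 could be tested against liver with irregular spots set aside, and neither passed, beside 18.4% of all 11949 probes tested. The median difference of these 2 was 0.87, or 0.15 with Krt5 at its bound, beside 0.15 over all probes tested. With irregular spots kept, 1 of 4 rose, Krt19, beside 10.9% of all probes in that fit, a call lost with contaminated spots kept (limma, adjusted p = 0.0827). Without N1 it was lost too, as was every call on the array.

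**Figure D2:**
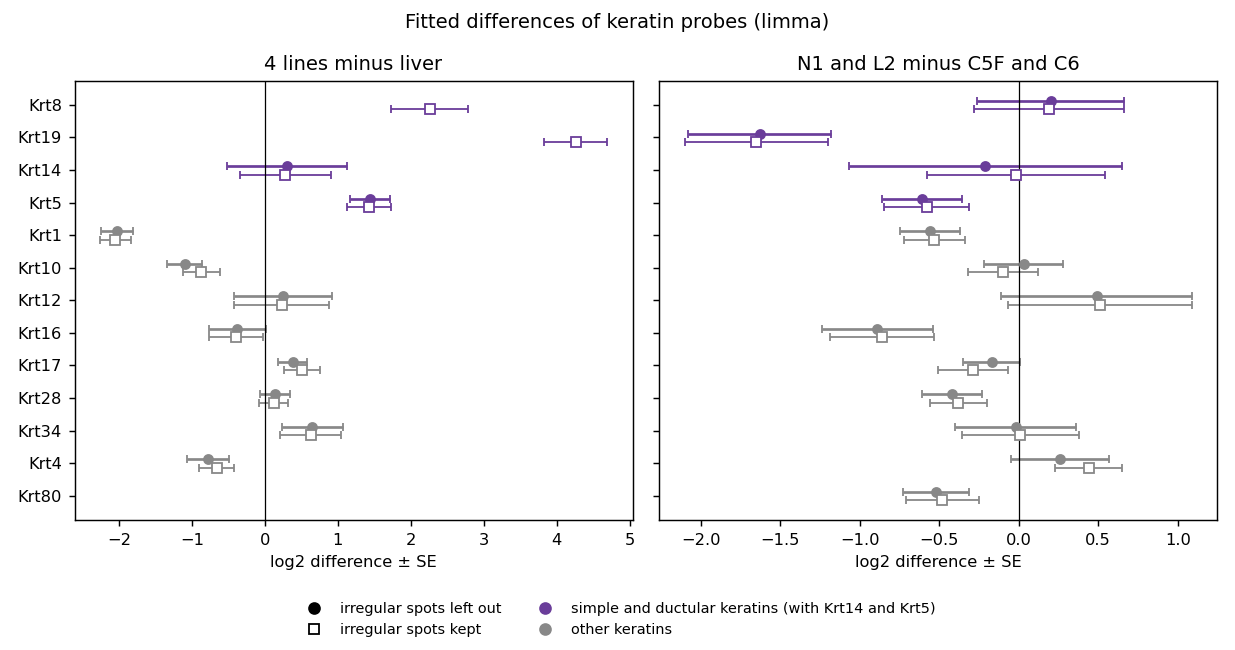
Fitted log2 differences with their standard errors (horizontal axis) for each keratin that could be fitted (vertical axis), for the 4 lines minus liver at left and for N1 and L2 minus C5F and C6 at right; filled circles leave irregular spots out and open squares keep them. Against liver, Krt19 at 4.26 and Krt8 at 2.26 lie farthest to the right, Krt1 at -2.03 lies farthest to the left, and between the classes no keratin passed.

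Between the classes, which asks what goes with metastatic ability, no keratin passed. This held for all 4 testable members, and 0% of the 13741 probes tested on the whole array passed (limma, lowest adjusted p = 0.489, with 1005 probes at an unadjusted p under 0.05). Krt8 was 0.20 ± 0.46 (SE, log2) higher in N1 and L2 than in C5F and C6 (limma, adjusted p = 0.921), a sign that turned to -0.03 when arrays were scaled to the median of probes above background and to -0.36 without N1. Krt14 differed by -0.21 ± 0.86 (adjusted p = 0.967, limma). Krt19 differed by -1.63 ± 0.45 with the N1 spot missing, so that L2 alone stood for its class (limma, adjusted p = 0.681). With the N1 spot kept the value was -0.18 ± 1.2 (limma, adjusted p = 0.986). Krt5 differed by a fitted -0.61 ± 0.25 (limma, adjusted p = 0.706). Its N1 and L2 spots were near background, so that only a bound holds, at least 1.35-fold lower than in C5F and C6. As Krt5 passed the filter only through C5F and C6, this class difference is not independent of the filter.

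The lines of high metastatic ability lay at opposite ends. For Krt8, Krt19 and Krt14 alike, N1 was the brightest line and L2 the dimmest, and this order of the ends was the same under quantile, median and 75th percentile scaling and in the authors' normalized intensity. In Krt8 and Krt19 the full order was N1, C5F, C6, L2, except that C6 and C5F changed places for Krt8 under 75th percentile scaling and in the authors' values. Of 5326 probes above background in all 4 lines, 13.4% had N1 highest with L2 lowest and 7.21% had the full order. The distance from N1 to L2 was 1.10 (log2, 2.14-fold) for Krt8, 3.06 (8.36-fold) for Krt19 and 1.32 (2.49-fold) for Krt14. For Krt19, N1 as the brightest line and this distance rest on the contaminated N1 spot. Without it C5F was brightest, 2.09 (4.27-fold) above L2. The median distance between the highest and lowest line over the 5326 probes was 0.65, and 17.6% were wider than Krt8. Krt19 and Krt14, each with a line spot set aside, are not among those probes.

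Steps between neighbouring lines are set beside the moderated SD within classes, which is estimated from the same 4 lines and so is not independent of them. For Krt8 they were 0.68 from N1 to C5F, 0.06 from C5F to C6 and 0.36 from C6 to L2, against an SD of 0.45, so that only the first exceeded it. For Krt19 they were 0.97, 0.77 and 1.32 against an SD of 1.2, and only the last exceeded it. The first step and this SD rest on the contaminated N1 spot. The SE of the Krt19 class difference was 1.2 with that spot kept and 0.45 without it. Which steps exceed the SD thus depends on that spot. For Krt14, in the order N1, C6, C5F, L2, they were 0.40, 0.48 and 0.44 against 0.55. No step in Krt14 exceeded its SD. Krt5 had the order C6, C5F, L2, N1, with steps of 0.39, 0.18 and 0.41 against 0.27, though its N1 and L2 values are near background, and C5F and C6 changed places under median scaling.

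**Figure D3:**
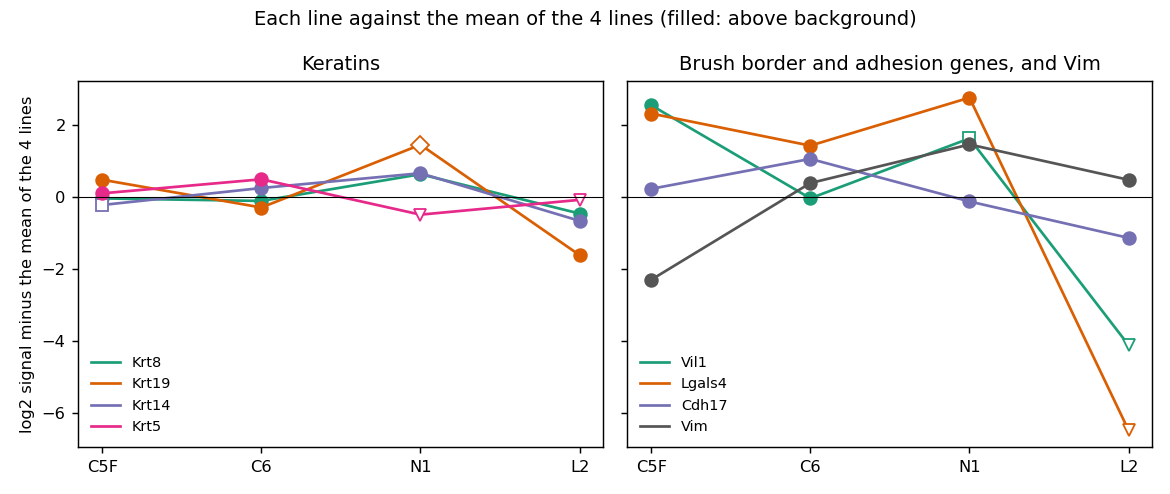
Log2 signal of each line minus the mean of the 4 lines (vertical axis) across C5F, C6, N1 and L2 (horizontal axis), for keratins at left and for Vil1, Lgals4, Cdh17 and Vim at right, with every spot kept; filled points are above background, squares irregular, diamonds contaminated and triangles near background. Krt8, Krt19 and Krt14 peak in N1 and are lowest in L2, Vil1 and Lgals4 drop to near background in L2, and Vim is lowest in C5F.

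Genes with the most similar profile were sought by the root mean square difference of centred log2 signals. For Krt5, the only member with all 5 spots usable and 2 above background, Dctn4 at 0.052, Llph at 0.092 and Nup155 at 0.097 were nearest among 3454 named genes over 5 arrays. For the lines alone, a search added after the data were seen over 2873 named genes, Krt8 was nearest to Snrpg at 0.066, Ucp2 at 0.067 and Cnp at 0.077. Krt19 had no such close match, with Myo15b at 0.349, Mpc1 at 0.357 and Ctsz at 0.415. On the same 4 arrays Krt14 lay 0.224 and Krt19 0.757 from Krt8.

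Of the other keratins, 15 of 46 listed genes had a probe, and none rose in the lines. In tests against liver 1 of 8 fell, beside 9.38% of all probes tested, and between the classes 0 of 9 passed. The gene that fell was Krt1, an epidermal type II keratin, with a log2 signal of 4.80 in liver and 2.92, 3.11, 2.52 and 2.45 in C5F, C6, N1 and L2, all 4 near background. The fitted difference was -2.03 ± 0.22 (SE, log2; limma, adjusted p = 0.021), which is at least 2.55-fold lower. This probe passed the filter through liver alone, where it was high, so its fall is not independent of the filter. The call was lost without any 1 line. A second Krt1 probe was near background on all arrays, at 3.20 in liver and at the floor of 1.34 in every line. The 2 probes thus differed in whether the liver spot was called above background. The median of the 8 tested was -0.12, or 0 with genes near background in a group at their bound.

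Krt17, a type I keratin of basal and wounded epithelium, was the only other keratin above background on all 5 arrays. Its log2 signal was 5.29 in liver, with C5F at 6.04, C6 at 5.84, N1 at 5.49 and L2 at 5.81, with a difference from liver of 0.38 ± 0.20 (SE; limma, adjusted p = 0.245). Krt10, a partner of Krt1 in epidermis, read 6.25 in liver and 5.58, 5.31, 5.21 and 5.47 in C5F, C6, N1 and L2, with the C5F spot irregular. Its difference of -1.10 ± 0.24 did not pass (limma, adjusted p = 0.0942). Krt4, a type II keratin of mucosal epithelium, read 6.12 in liver and 5.08, 5.41, 5.71 and 5.65 in the lines in the same order, with a difference of -0.78 ± 0.29 (limma, adjusted p = 0.195). Both were lower in all 4 lines than in liver, as were 29.6% of probes with every spot kept.

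The remaining keratins were dim. Krt80 was above background in C5F at 4.04, C6 at 4.34 and L2 at 3.86, near it in N1 at 3.56, and masked in liver. Krt34 read 3.46 in liver and 4.51, 3.65, 4.0 and 4.19 in C5F, C6, N1 and L2, near background in liver and C6. Krt12 was above background in C6 at 3.86 and N1 at 3.95, Krt16 in C5F at 3.45 and C6 at 3.96, and Krt28 in C5F at 3.84 and C6 at 3.95. Krt15 was above background in L2 alone, at 4.30, and Krt36, a hair keratin, in N1 alone, at 5.21. Krt13, Krt39, Krt76 and Krt9 were near background on every array.

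Of 14 other intermediate filament genes with a probe, 5 were tested against liver with irregular spots set aside. None passed (limma), beside 18.4% of all probes tested. The median difference was 1.24, or 0.97 with genes near background in liver at their bound. The nuclear lamins Lmna and Lmnb2 differed by 1.80 ± 0.41 and 1.17 ± 0.42 (SE, log2; limma, adjusted p = 0.0683 and 0.184), Lmnb2 being named after its value was seen. In liver nestin (Nes) and Bfsp1 of the eye lens were near background, and the lines were at least 1.96-fold higher for Nes and at least 1.04-fold for Bfsp1 (limma, adjusted p = 0.0609 and 0.465). With irregular spots kept, the lamin Lmnb1 rose by 1.70 ± 0.32 and peripherin (Prph) fell by 1.90 (limma, adjusted p = 0.0484 and 0.0241), both picked after their values were seen, and both calls were lost without any 1 line. In that fit 10.9% of all probes tested rose and 8.27% fell. Vimentin (Vim), the filament of mesenchymal cells, read 6.03 in liver, on an irregular spot, with C5F at 6.34, C6 at 9.02, N1 at 10.09 and L2 at 9.11. C5F was close to liver and the other lines were above both. The difference between the classes was 2.00 ± 1.14 (limma, adjusted p = 0.762).

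Genes that anchor keratins to desmosomes and hemidesmosomes gave no call against liver among the 5 tested of 12 with a probe, beside 18.4% of all probes. Plakophilin 3 (Pkp3), a desmosomal plaque protein, differed from liver by -3.86 ± 0.82 (SE, log2; limma, adjusted p = 0.0603), reading 6.67 in liver and 2.50, 4.18, 2.13 and 3.04 in the lines from C5F to L2. Among the lines only C6 was above background for Pkp3, so the size of this difference is uncertain. Integrin alpha 6 (Itga6), of hemidesmosomes, read 4.49 in liver and 6.33, 7.46, 8.57 and 8.39 in C5F, C6, N1 and L2. Its difference of 3.15 ± 0.68 did not pass (limma, adjusted p = 0.0939) but passed with its irregular N1 spot kept (adjusted p = 0.0376, limma). Itga6 was the only 1 of 10 to rise in that fit, beside 10.9% of all probes tested. The Itga6 call was lost without any 1 line. Periplakin (Ppl), a linker, was at least 2.79-fold higher but did not pass (limma, adjusted p = 0.0609).

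Proteins that bind or modify keratins had 15 genes with a probe, of which 10 were tested against liver. Of the 10, 1 rose, beside 9.01% of all probes tested. This was Ywhag, a 14-3-3 protein, at 1.13 ± 0.20 (SE, log2; limma, adjusted p = 0.0457), picked after its value was seen. With irregular spots kept, 3 of 13 rose, beside 10.9% of all probes in that fit. They were Ywhaq by 1.93 (adjusted p = 0.0198, limma), Ywhag, and the keratin filament binder trichoplein (Tchp) by 1.0 (limma, adjusted p = 0.0484). All these calls were lost without any 1 line. Regulators of epithelial genes had 22 with a probe and 10 tested. Of the 10, 1 rose and 2 fell, beside 9.01% and 9.38% of all probes tested. Fosl1, an AP-1 subunit, rose to at least 10.9-fold above liver (limma, adjusted p = 0.0427). The hepatic factors Foxa1 and Hnf4a fell, Foxa1 at least 6.15-fold lower (limma, adjusted p = 0.0119) and Hnf4a by 2.07 (log2, limma, adjusted p = 0.0332). Foxa1 passed the filter through liver alone, where it was high. Hnf4a is named although it was not among the 3 largest differences of its list. The calls of Fosl1, Foxa1 and Hnf4a too were lost without any 1 line. No gene of these lists passed between the classes.

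Bile duct markers other than keratins gave no call as higher in the lines with irregular spots set aside. Of 15 cholangiocyte genes with a probe, 5 were above background in liver, 6 in C5F and 5 in each of C6, N1 and L2. The summed signal was 324 in liver and 641 to 1300 in the lines. A few bright probes weigh most in this sum, in N1 Tspan8 at 8.73 and Itga6 at 8.57 (log2). The sum is thus no measure of the 15 genes alike. Among 6 tested, none rose and 1 fell, beside 9.01% and 9.38% of all probes tested. The gene that fell was Prom1, near background in every line and at least 2.73-fold lower there (limma, adjusted p = 0.028). Prom1 was picked after its value was seen, and its call was lost without any 1 line. It passed the filter through liver alone, where it was high. With irregular spots kept 1 of 7 rose, Itga6, beside 10.9% of all probes in that fit. The duct factor Sox9 and Spp1, Aqp1, Anxa13, Cldn7 and Itgb6 were near background on all 5 arrays. Tspan8, a tetraspanin, was near background in liver at 1.34 and above it in every line, with C5F at 6.75, C6 at 4.73, N1 at 8.73 and L2 at 3.86. N1 was highest and L2 lowest, as for Krt19 with its contaminated N1 spot kept. The lines were at least 4.35-fold above liver in the mean, which did not pass (limma, adjusted p = 0.229). Cd24 differed from liver by 2.03 ± 0.41 and did not pass (limma, adjusted p = 0.0559). Other markers of the list did not share the line order of Tspan8. Cd24 was highest in L2 at 7.75 and lowest in C6 at 6.38. Itga6 and Slc4a2 were lowest in C5F, while Epcam was lowest in L2 but highest in C5F.

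Markers of other epithelia differed from line to line, and none passed between the classes. Among 12 gastrointestinal genes with a probe, the summed signal was 779 in liver, with C5F at 3120, C6 at 3100, N1 at 3320 and L2 at 706. L2, the line with the lowest Krt8 and Krt19, had the lowest sum too. The bright probes of Lgals4 and Cdh17 weigh most in the sums of C5F, C6 and N1. The order of the sums thus does not speak for the 12 genes alike. Lgals4, a galectin, read 1.49 in liver, with C5F at 10.31, C6 at 9.42, N1 at 10.75 and L2 at 1.53. The brush border protein villin (Vil1) read 1.39, 7.99, 5.41, 7.07 and 1.34 on the same arrays, its N1 spot irregular. Cadherin 17 (Cdh17) was above background on all arrays, at 7.82 in liver and 10.10, 10.93, 9.75 and 8.74 in C5F, C6, N1 and L2. None of the 3 passed between the classes or against liver. Of 8 gastrointestinal genes tested against liver, 1 fell, beside 9.38% of all probes tested. It was the tetraspanin relative Tm4sf4, at least 6.12-fold lower (limma, adjusted p = 0.00695). Of 10 squamous and basal genes with a probe, 2 were tested against liver and neither passed, and Tp63, Ivl, Sfn, Spink5, Sprr1a and Trim29 were near background on all arrays. Of 3 mesothelial genes tested 1 fell, Gpm6a (limma, adjusted p = 0.00955), beside the same 9.38% of all probes. Mesothelin (Msln) was above background only in C6 at 4.98 and L2 at 5.90. The calls of Tm4sf4 and Gpm6a were lost without any 1 line. The part of these cell types in the keratin values was not tested.

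**Figure D4:**
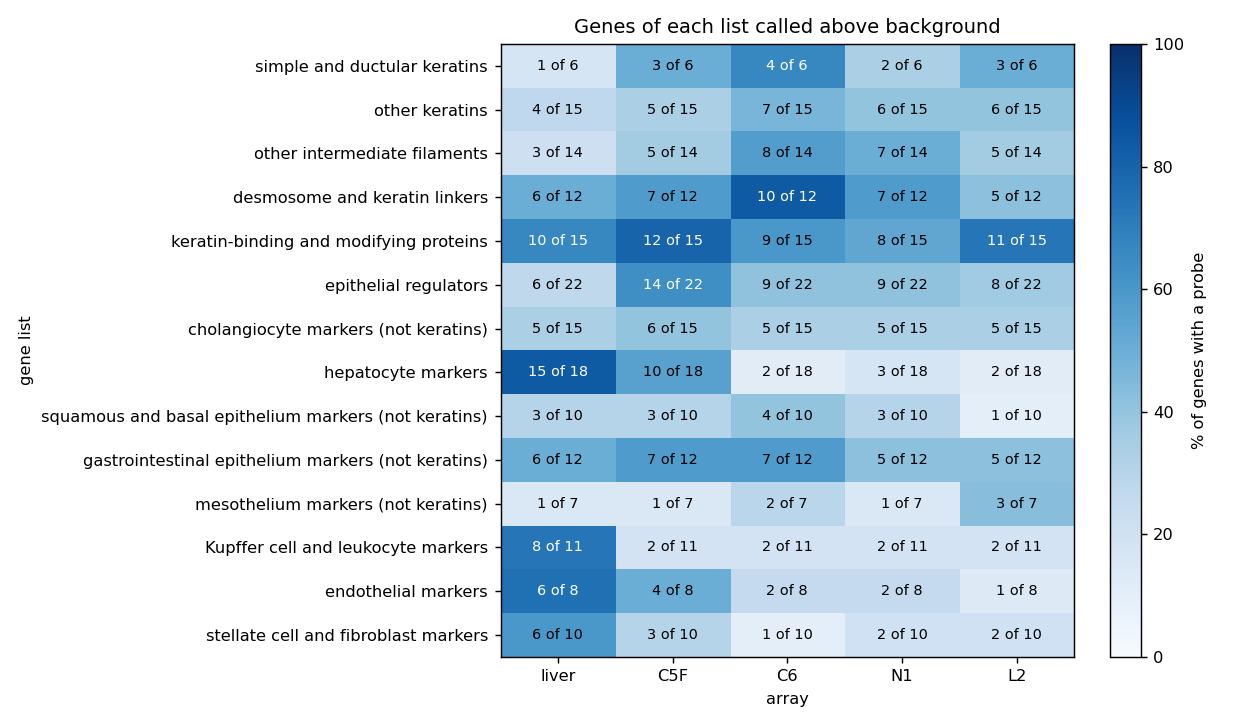
Number of genes of each list called above background (cell text) on each of the 5 arrays (columns), with the colour giving the percent of the genes with a probe. Of the 6 simple and ductular keratins 1 was above background in liver, where the spots of Krt8 and Krt19 were irregular and not counted, and 3, 4, 2 and 3 in C5F, C6, N1 and L2, where the irregular Krt14 spot of C5F and the contaminated Krt19 spot of N1 are not counted either; hepatocyte markers went from 15 of 18 in liver to 2 of 18 in L2.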

How the data were processed

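RNA of 1 liver and 4 lines was measured on CodeLink arrays. Per the file headers, the authors quantified scans with CodeLink Expression Analysis 4.1.0.29054, and the deposited raw intensity of each spot has background subtracted. The deposited normalized intensity served as an alternative. Irregular, contaminated and masked spots were left out, signals were quantile normalised with limma 3.58.1 in R 4.3.3, floored at 2.53 (the median signal of near-background spots) and put on a log2 scale. The filter left 16377 probes. A probe detected in liver alone, or in some lines alone, passed through the arrays where it was high. Its test is thus not independent of the filter. A limma model with 3 groups (liver, low- and high-metastatic) was fitted over the 5 arrays with limma's empirical Bayes step (prior degrees of freedom 1.46, residual 2 at most) and Benjamini-Hochberg adjustment over all probes tested, two-sided, at 0.05. The single liver array is taken to vary like lines of a class. Probes left with no residual degree of freedom were skipped. The package data.table (version 1.17.8) read the files, and robust eBayes used statmod 1.5.0.

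Of the probes 16753 had 1 gene, 165 several and 16931 none, and 16724 of the 16753 matched GRCr8 by Entrez number. The brightest probe stood for a gene. "At least" folds use, for arrays near background, the lowest signal called above background there (liver 14.6, C5F 7.87, C6 11.8, N1 13 and L2 11.2). Where the spot's own signal was higher than that, its own signal was used. The naming rule took all members and every other keratin above background on an array. Per list, it allowed the 3 genes with the largest absolute difference in each comparison to be named. Not all genes so allowed are named. Members and lists were chosen with earlier results of these data known.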

Additional observations from a re-analysis of the deposited data

Results flagged for a closer look

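With every spot kept, Krt28 had C5F and C6 above liver and N1 and L2 below it. Its log2 signal was 3.58 in liver, with C5F at 3.84, C6 at 3.95, N1 at 3.55 and L2 at 3.47. The mean of N1 and L2 minus that of C5F and C6 was -0.38 with every spot kept. With irregular and contaminated spots left out before normalisation N1 was at 3.60 and liver at 3.57, so that N1 no longer lay below liver. The difference in direction was not tested, liver, N1 and L2 were near background, and the class difference did not pass (limma, adjusted p = 0.724).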

How the results depend on the processing

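The count of keratins called against liver was 0 and became 1 with irregular spots kept (Krt19) and 1 with the filter that asked for liver or both lines of a class (Krt5). Krt5 met that filter only through C5F and C6, where it was brightest. With contaminated spots kept too, an alternative chosen after seeing the data, the Krt19 difference of 5.07 did not pass. The 2198 probes called against liver became 0 without each line in turn, with irregular spots set aside or kept (lowest to highest 0 to 0). For Krt8 between the classes the value of 0.20 turned to -0.03 under median scaling, and ranged from -0.40 to 0.77 without single lines (-0.36 without N1 with irregular spots set aside). Krt14 ranged from -0.68 to 0.64 between the classes and from -0.05 to 0.61 against liver, reversing without N1 (-0.05), without L2 (0.64) and without C6 (0.22) when irregular spots were kept. The 1077 higher and 1121 lower probes against liver became 621 and 1312 with an offset of 50, 724 and 1365 with a higher floor, and 623 and 1725 with no filter. Median scaling moved the median of all probes from 0.15 to 0.29 against liver and from 0 to -0.12 between the classes. Krt5 lay between 0.22 (with the offset of 50, which shrinks differences of dim probes) and 1.53 against liver, positive throughout. As its liver spot was near background, the difference at its bound was 0. No paired analysis was possible because no replicate numbers are given in the labels. A slide block was not run, since each slide held 1 array. Signals near background limit Krt5, Krt20 and Krt23.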
